A study of Mus musculus with 47 samples.

Results

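The interferon-stimulated genes followed here were a list of 47 genes, taken by symbol and kept where both count tables held them. All 47 were found among the 53402 genes listed for adult mice and the 55471 listed for neonates, and all 47 passed the filter on low counts in both tables. No measured value was used to choose them, although the list was drawn up with earlier results of these data known. They were measured by bulk RNA-seq in 47 libraries of medullary thymic epithelial cells (mTECs), which present self-antigens to developing T cells. CD45-EpCAM+Ly51- cells were sorted as MHC-II high (mTEChi), the fraction that holds most Aire-expressing cells, or as MHC-II low (mTEClo).

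The adult table held 7 mTEChi and 8 mTEClo libraries of wild-type (WT) mice of either sex, aged 4 to 5 weeks, and 4 mTEChi and 4 mTEClo libraries of male Aire-deficient mice (AireKO), aged 5 to 6 weeks. The neonatal table, from mice of 1 to 6 days, held control (Ctrl), AireKO, EEDcKO and AireEEDdKO mice, with 5, 3, 3 and 3 mTEChi libraries, and with 3 Ctrl, 4 EEDcKO and 3 AireEEDdKO mTEClo libraries. EEDcKO mice carry a floxed Eed allele, a core subunit of the polycomb repressive complex, deleted by Cre under the Foxn1 promoter, which is active in thymic epithelium, and AireEEDdKO mice lack Aire as well. Aire was lost from every cell of the AireKO mice, whereas Eed loss was limited to the Foxn1 lineage. Some neonatal libraries pooled male and female pups, and the labels did not specify the genotype of the Ctrl pups further. The adult genotypes thus differed in age and sex as well. A neonatal mTEClo AireKO group is not analysed here.

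Interferons signal through cell-surface receptors and their kinases. Type I and III interferons act through a complex that includes STAT2 and IRF9 and binds the interferon-stimulated response element (ISRE) in target promoters, while interferon gamma acts mainly at the gamma-activated site (GAS). The targets include sensors of viral RNA, enzymes that degrade or modify RNA, the ubiquitin-like modifier ISG15, guanylate-binding proteins, chemokines and the immunoproteasome. Mature mTECs are known to express many of these genes without infection.

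To show the element that gives the list its name, the promoter windows of 8 members are printed, chosen because their matches lay wholly upstream of the annotated gene and because 7 of them are described in every library. Sequences are from RefSeq on GRCm38.p6, read 5′ to 3′ on the strand of the gene, and capitals mark every base of a match to the ISRE core, GAAANNGAAA, on either strand (TTTC, 2 bases and TTTC when it lies on the opposite strand). The windows are chr4:156200862-156200921 (minus strand) for Isg15, chr19:34640760-34640819 (plus) for Ifit1, chr19:34583348-34583407 (plus) for Ifit3, chr19:34607744-34607803 (plus) for Ifit3b, chr10:128270251-128270310 (plus) for Stat2, chr5:120777700-120777759 (minus) for Oas3, chr12:26456538-26456597 (minus) for Rsad2 and chr5:92349068-92349127 (minus) for Cxcl10.
Isg15: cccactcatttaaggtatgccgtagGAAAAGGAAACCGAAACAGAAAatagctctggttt
Ifit1: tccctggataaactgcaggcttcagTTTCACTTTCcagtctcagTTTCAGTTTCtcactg
Ifit3: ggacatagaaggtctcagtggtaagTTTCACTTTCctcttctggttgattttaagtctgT
Ifit3b: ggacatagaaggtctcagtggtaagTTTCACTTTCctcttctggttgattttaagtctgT
Stat2: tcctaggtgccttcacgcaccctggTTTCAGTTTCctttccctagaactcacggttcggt
Oas3: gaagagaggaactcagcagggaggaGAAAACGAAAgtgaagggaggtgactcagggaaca
Rsad2: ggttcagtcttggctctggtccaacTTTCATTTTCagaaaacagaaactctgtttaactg
Cxcl10: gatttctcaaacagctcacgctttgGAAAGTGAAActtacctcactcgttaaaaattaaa
The Isg15 window holds 3 overlapping matches, the first starting 78 bases before the start site, and Ifit1 holds 2. The windows of Ifit3 and Ifit3b are identical letter for letter, and the final capital of each begins another match. The genes themselves are near-identical copies. Reads that match both may have been removed before counting, with others of low mapping quality, so the levels of both are uncertain. An ISRE core lay within 250 bases before to 50 bases after a start site in 20 of the 37 members with a RefSeq promoter entry (54.1%), against 3.99% of 27025 genes with an entry. A GAS (TTCNNNGAA, both strands) lay in 11 of the 37 (29.7%), against 9.55% of all genes. Usp18, Oas2, Mx1, Mx2, Rtp4, Ifi27, Dhx58, Parp9, Parp14 and Zbp1 had no entry. These matches describe letters in a window and say nothing of binding.

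The counts behind each library ranged from 1602125 to 3938588 in adults and from 1578579 to 4817418 in neonates, and 45 to 47 members had a count in every library. Biological coefficients of variation were 14.5% and 19.8%. The deleted genes were low in the libraries labelled as lacking them. Aire averaged 818 ± 56 CPM (counts scaled to library size and by the trimmed mean of M-values, TMM; SD, n = 7) in adult mTEChi WT and 29.3 in AireKO, and in neonatal mTEChi 619 in Ctrl, 821 in EEDcKO, 70.6 in AireKO and 21.6 in AireEEDdKO. Eed, of which only part is deleted, averaged 29.1 CPM in neonatal mTEChi Ctrl and 14.8 in EEDcKO. Summed CPM of the mTEC markers, a list that includes Aire, ranged from 1356 to 3513 over all libraries. In 6 adult libraries, the 4 mTEChi AireKO and 2 mTEClo AireKO, no mitochondrial gene had a count, against 6178 to 10339 mitochondrial counts in the other adult libraries. For adult mTEChi this cannot be told apart from the loss of Aire. Libraries within a group are separate samples by their labels, and p-values measure the spread between them. In bulk RNA, fewer cells that express a gene and less of its RNA per cell cannot be told apart.

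As a single description of each library, the mean log2(CPM + 1) over the 47 members averaged 5.95 in adult mTEChi WT and 7.01 in adult mTEClo WT. The AireKO libraries lay below those of the same fraction, at 5.03 (4.98 to 5.08) in mTEChi and 6.22 (6.17 to 6.28) in mTEClo, with no overlap with WT in either fraction. In neonatal mTEChi the means were 5.97 in Ctrl, 6.55 in EEDcKO, 4.90 in AireKO and 4.88 in AireEEDdKO. In neonatal mTEClo they were 6.37 in Ctrl, 6.57 in EEDcKO and 5.26 in AireEEDdKO. All libraries that lacked Aire thus sat below every Aire-sufficient library of their own age and fraction, whereas EEDcKO lay above Ctrl in mTEChi and overlapped it in mTEClo. The 2 tables were scaled apart, so adult and neonatal values are not compared as levels.

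**Figure D1:**
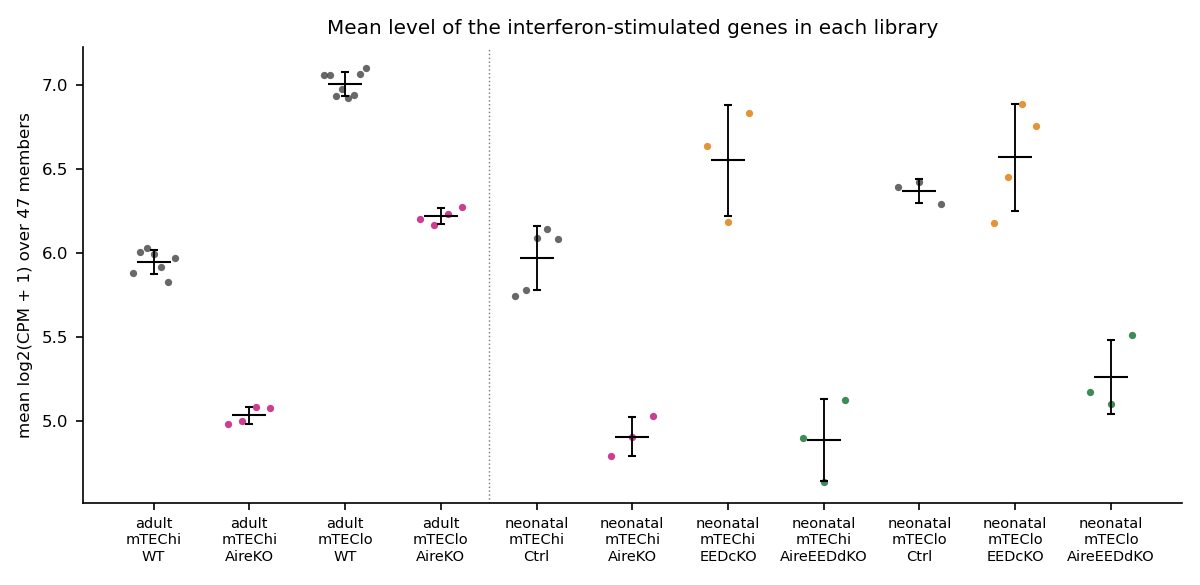
Each point is a library, placed by the mean of log2(CPM + 1) over the 47 members (vertical axis), and bars show the group mean ± SD. The dotted line parts the adult from the neonatal table. Adult mTEChi AireKO libraries sit between 4.98 and 5.08 and adult mTEChi WT libraries between 5.83 and 6.03.

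Per kilobase of exon, Ifitm3, which blocks the entry of enveloped viruses, stood first among the members in all 11 groups, at 199 CPM per kb in adult mTEChi WT and 293 in adult mTEClo WT. Cxcl10, a chemokine that attracts activated T cells, stood second in adult mTEChi, at 95.3 CPM per kb in WT and 134 in AireKO, whereas Oasl2, an OAS-like protein, stood second in adult mTEClo WT at 106. Ifit3b was lowest in adult mTEChi WT at 2.24 CPM per kb, and Oas2 was lowest in adult mTEChi AireKO at 0.141. The list therefore spans genes that every library counted well and genes at the edge of detection.

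The first comparison asked how the members differ between fractions in WT adults. A member or gene is called here when edgeR's quasi-likelihood test gave an adjusted p under 0.05, with Benjamini-Hochberg adjustment over all genes tested, and the change was at least 2-fold. Of 47 members, 26 (55.3%) were lower in mTEChi than in mTEClo and 1 (2.13%) was higher, against 12.4% lower and 23.7% higher among the 19310 genes tested. The median log2 fold change of the members was -1.08. Most genes called in this comparison were thus higher in mTEChi, and most members called were lower. Of the marker lists for other cells, 7 of 9 tested dendritic and myeloid, 5 of 5 thymocyte and 3 of 5 mesenchymal markers were higher in mTEChi, with 1 mesenchymal marker lower. Summed plasmacytoid dendritic markers, a list that includes the member Bst2, averaged 201 CPM in mTEChi and 446 in mTEClo, with 2 of 4 tested markers lower. The part of these markers in the member differences was not tested.

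By role, the decrease took in 3 of 4 regulators, 4 of 5 nucleic acid sensors, 4 of 6 GTPases and 8 of 14 other antiviral genes. Oas2, which makes the second messenger that activates RNase L, averaged 11.2 CPM in mTEChi and 126 in mTEClo, which is -3.42 as a log2 fold change (edgeR adjusted p 3.25e-17, SE 0.157). Ddx58, which encodes the RNA sensor RIG-I, averaged 61.0 and 342 CPM (-2.49, SE 0.0627, adjusted p 3.84e-22). Both were separated between fractions with no overlap of libraries. Rtp4, an interferon-induced receptor chaperone, differed by -2.86 (SE 0.111, adjusted p 9.32e-19). Gbp3, a guanylate-binding protein, differed by -2.42 (SE 0.0881). Stat2, the STAT specific to the type I and III complex, fell from 341 to 110 CPM (-1.63, SE 0.0708).

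Among the 21 members not called lower were both chemokines and all 3 antigen-processing genes, with 16 members of the other roles. Cxcl9, a chemokine induced mainly by interferon gamma, was the 1 member higher in mTEChi, at 158 CPM against 51.4 (log2 fold change 1.63, SE 0.107, adjusted p 7.57e-14). Cxcl10 differed by 0.79 and Irf1, a transcription factor of the gamma response, by 0.48, both under 2-fold with libraries that did not overlap. None of the 3 antigen-processing members (Psmb8, Psmb9 and Tap1) was called. Rsad2, the antiviral enzyme viperin, differed by 0.04 (adjusted p 0.819), and Ifit2 by -0.18 (adjusted p 0.284), while Ifit3 of the same family fell by 2.58 (SE 0.152) on the log2 scale.

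In AireKO adults, 23 members (48.9%) were lower and 4 (8.51%) higher in mTEChi than in mTEClo, against 16.7% and 18.5% of genes tested. Oas2 averaged 0.630 CPM in mTEChi and 27.6 in mTEClo (log2 fold change -5.45, SE 0.402, adjusted p 1.98e-12). Unlike in WT, Rsad2 was lower in mTEChi, at 2.27 against 21.7 CPM (-3.11, SE 0.367). Cxcl10 was higher in mTEChi, at 302 against 86.8 CPM (1.82, SE 0.148, adjusted p 1.5e-11). Cxcl9, the immunoproteasome subunit gene Psmb8 (1.08, SE 0.141) and Oasl1 (1.08, SE 0.164) were the other members called higher. The estimated fraction difference thus ran in opposite directions for the chemokines and for most antiviral genes in both genotypes.

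With Aire lost in adult mTEChi, members of 6 of the 9 roles were lower, and no regulator, chemokine or antigen-processing gene was called. Of 47 members, 20 (42.6%) were lower in AireKO, against 17.8% of genes tested, and none was called higher, against 5.63% of genes tested. The median log2 fold change was -0.75 over the members and within 0.06 of 0 over all genes. Without the 2-fold minimum, 34 members were lower and 7 higher at an adjusted p under 0.05, the same counts as at an unadjusted p under 0.05, and DESeq2 also called 20 lower and none higher. In 29 members every AireKO library lay below every WT library, in 5 every AireKO library lay above, and 13 overlapped. How many of all tested genes separated in this way, or passed an unadjusted p, was not counted here or below. The share of all genes that passed an adjusted p without the 2-fold minimum is not given either. Such counts are therefore not read as particular to the members. With male libraries alone 20 members were lower, and with age in weeks as a term 21.

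Rsad2 changed most among the members. Its CPM in the 7 WT libraries ran from 42.1 through a median of 58.6 to 73.2, and in the 4 AireKO libraries it was 0.439, 1.23, 6.16 and 1.25. The highest AireKO library stood far above the other AireKO libraries and still well below the lowest WT library. Rsad2 was 22.5-fold lower in AireKO (-4.49 on the log2 scale, SE 0.313, adjusted p 5.4e-12).

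The IFIT genes, whose proteins bind viral RNA, divided. Ifit2 ran from 31.9 through 52.8 to 57.8 CPM in WT and was 3.95, 0, 4.45 and 2.51 in AireKO (log2 fold change -4.09, SE 0.288, adjusted p 6.5e-12). Ifit3 ran from 7.43 through 11.5 to 17.1 CPM in WT and was 0.439, 1.64, 1.37 and 1.67 in AireKO (-3.25, SE 0.350). Neither overlapped. Ifit3b ran from 3.00 through 4.84 to 5.71 CPM in WT and was 0.439, 0, 0.685 and 0.418 in AireKO (-3.36, SE 0.458). Ifit1 ran from 111 through 118 to 144 CPM in WT and was 109, 113, 177 and 177 in AireKO (0.23, SE 0.126, adjusted p 0.123). Ifit1, whose printed window holds 2 ISRE cores, thus overlapped between genotypes and was not called.

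Oas2 ran from 6.2 through 9.64 to 18.7 CPM in WT and was 0.439, 0.409, 0 and 1.67 in AireKO (log2 fold change -4.19, SE 0.439, adjusted p 7.94e-09). It was the only OAS gene called, since Oas3 differed by -0.84 and Oasl2 by -0.50, both without overlap and under 2-fold. Of the GTPases, 5 of 6 fell. Gbp2 ran from 35.3 through 41.4 to 48.6 CPM in WT and was 10.5, 11, 11 and 10.02 in AireKO (-1.94, SE 0.134). Gbp3, Gbp5, Gbp7 and Irgm1, an immunity-related GTPase, differed by -2.15, -1.42, -1.73 and -1.30. The 4 AireKO libraries of Gbp2 lay close together, far below WT.

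Of the other antiviral genes, 7 of 14 fell. Ifi44 ran from 30.0 through 36.4 to 41.7 CPM in WT and was 2.63, 3.27, 10.6 and 6.68 in AireKO (log2 fold change -2.60, SE 0.230). Rtp4 ran from 14.5 through 19.6 to 24.3 and was 3.51, 6.55, 3.77 and 2.92 (-2.15, SE 0.207). Xaf1, an interferon-induced promoter of apoptosis, ran from 22.3 through 24.2 to 30.0 and was 7.46, 9.41, 7.53 and 7.52 (-1.68, SE 0.129). None of these overlapped. The sensors Eif2ak2 (the kinase PKR), Ddx58 and Ifih1 (MDA5) also fell, Eif2ak2 from 40.7 to 16.1 CPM (-1.31, SE 0.160, adjusted p 9.6e-08).

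Isg15 and Usp18, the modifier and the protease that removes it, did not move together. Isg15 ran from 7.50 through 9.04 to 10.9 CPM in WT and was 3.51, 1.64, 2.74 and 3.34 in AireKO (log2 fold change -1.68, SE 0.236, adjusted p 9.98e-07). Usp18 ran from 175 through 183 to 204 CPM in WT and was 244, 241, 240 and 235 in AireKO (0.37, SE 0.0770). Every Isg15 value in AireKO lay below WT, and every Usp18 value lay above WT by less than 2-fold. Irf7, the regulator that amplifies type I interferon, ran from 47.1 through 64.2 to 80.7 CPM and was 38.2, 35.6, 27.7 and 39.7 (-0.89, SE 0.132), just short of 2-fold. Stat2 ran from 100 through 106 to 127 CPM and was 95.6, 92.9, 93.5 and 82.7 (-0.27, SE 0.0878, adjusted p 0.00996).

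A further set lay higher in AireKO without reaching 2-fold. Irf1 ran from 172 through 178 to 190 CPM in WT and was 245, 257, 238 and 248 in AireKO (log2 fold change 0.46, SE 0.0650). Psmb9, an immunoproteasome subunit, ran from 77.1 through 82.2 to 88.9 and was 136, 132, 117 and 115 (0.59, SE 0.0806, adjusted p 7.27e-07). Cxcl10 ran from 198 through 214 to 234 and was 347, 327, 244 and 288 (0.49, SE 0.122). For all 3, every AireKO library exceeded every WT library. Psmb9 and Tap1, the peptide transporter (0.40, adjusted p 0.00271), overlap at their starts on chromosome 17 (34181987 to 34187764 on the minus strand and 34187553 to 34197225 on the plus strand, GRCm38), and counting ignored strand, so their reads may not be separable.

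**Figure D2:**
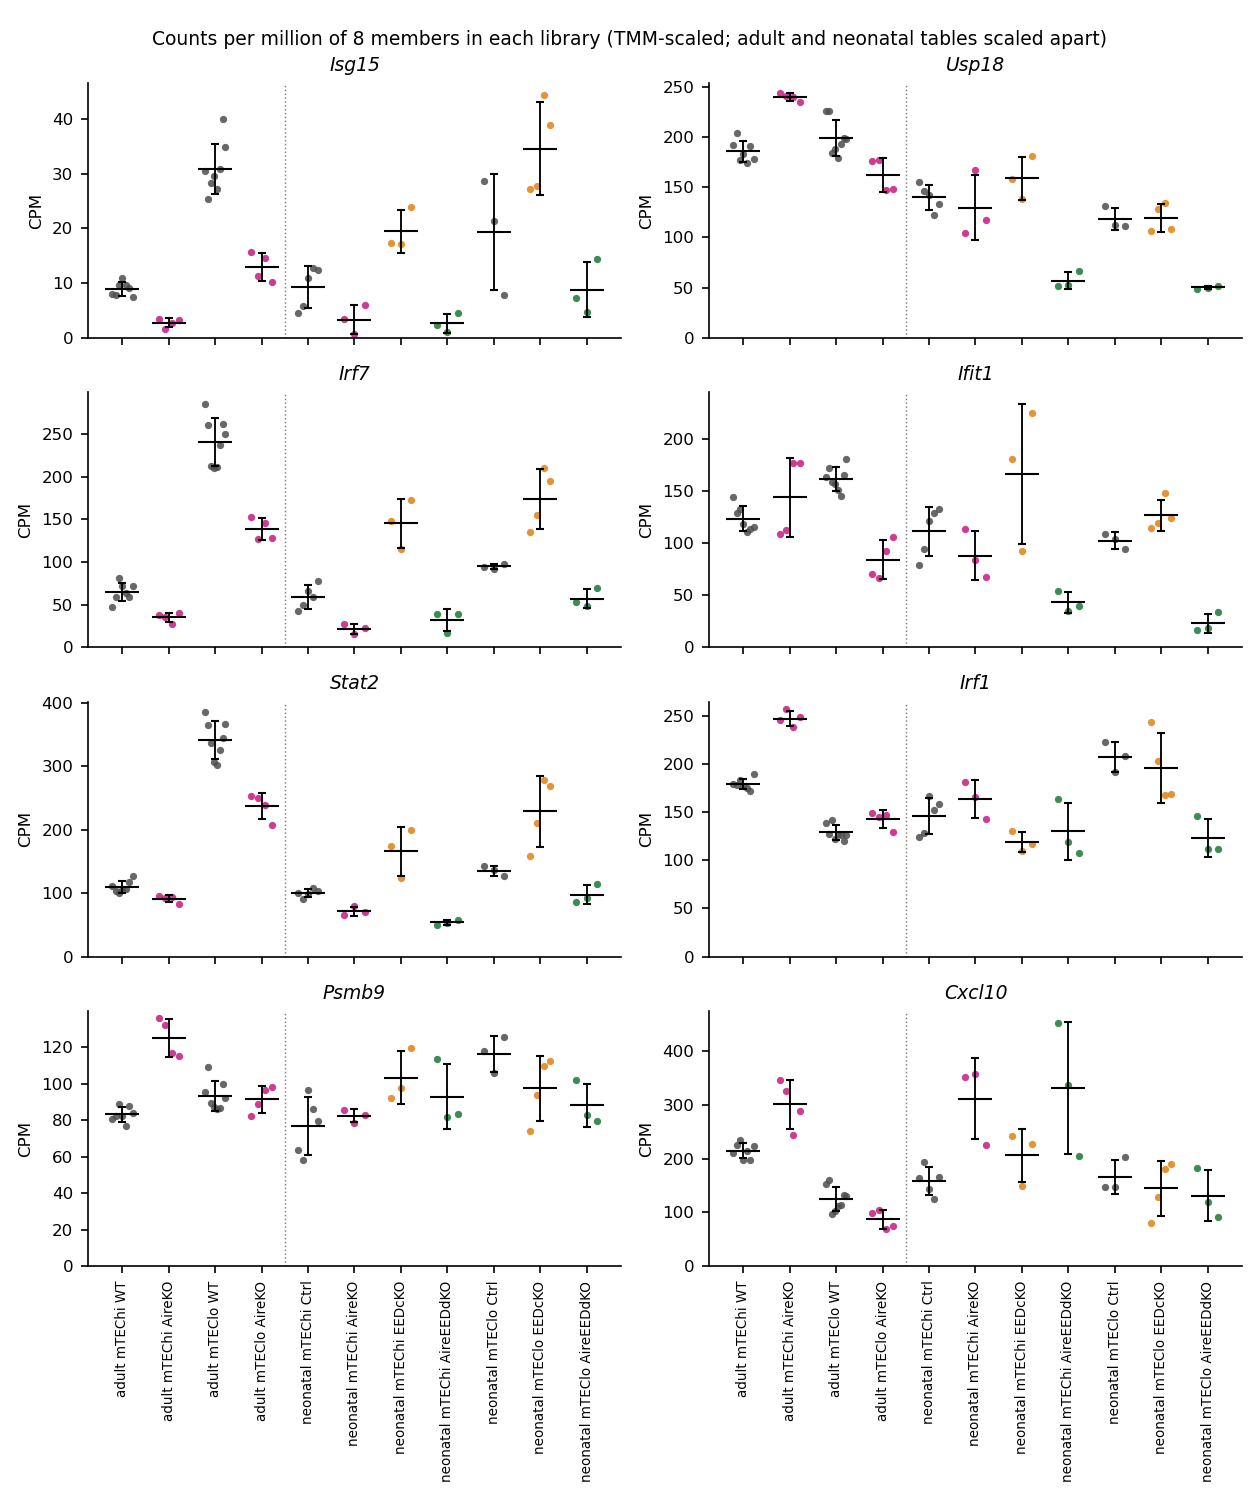
CPM (vertical axes, starting at 0) of 8 members in each library of the 11 groups, with group mean ± SD as bars. Usp18 and Irf1 in adult mTEChi lie higher in AireKO than in WT while Isg15 lies lower, and Usp18 and Ifit1 are lowest in the neonatal AireEEDdKO groups.

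Genes listed as markers of other cells moved in the same comparison. The paper describes mTECs that express genes of peripheral tissues themselves, so levels of these genes need not count other cells. Adgre1, which encodes the macrophage antigen F4/80, averaged 37.2 CPM (31.8 to 47.7) in adult mTEChi WT and 0.902 (0 to 2.05) in AireKO, and Itgax averaged 5.09 and 0.294. The leukocyte gene Ptprc averaged 22.5 and 6.09 CPM. Of the 9 tested dendritic and myeloid markers, 4 were lower and none higher. The summed level of that list was 1098 CPM (955 to 1283) in WT and 1244 (1108 to 1320) in AireKO. The list includes Cd74, the invariant chain of MHC-II, and the cells were sorted on MHC-II, so its sum need not follow myeloid cells. Of the 5 tested thymocyte markers, 4 were lower, with sums of 69.8 to 89.4 CPM in WT and 39.4 to 52.0 in AireKO. Of the 5 mesenchymal markers, 3 were lower and 1 higher (median log2 fold change -2.22). Summed plasmacytoid dendritic markers, Bst2 included, ranged from 181 to 221 CPM in WT and from 138 to 149 in AireKO. Summed mTEC markers ranged from 2507 to 2966 CPM in WT and from 1645 to 1941 in AireKO, and neither sum overlapped. The mTEC list includes Aire, the deleted gene, and of its 9 tested markers 1 was lower and none higher. The part of all these lists in the member changes was not tested.

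In adult mTEClo, 14 members (29.8%) were lower in AireKO, against 3.88% of genes tested, and none was called higher, against 4.42% of genes tested. At an unadjusted p under 0.05, 42 members were lower and 2 higher, and DESeq2 called 13 lower and none higher. The median log2 fold change was -0.79, and 44 of 47 estimates were negative. Among the 4 mTEClo AireKO libraries, leaving out the 2 without mitochondrial counts gave 16 members lower, and with male libraries alone there were 14. Almost all estimates thus shared a sign, and the steepest was smaller than in mTEChi.

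Oas2, at 27.6 CPM in AireKO and 126 in WT, changed most (log2 fold change -2.16, SE 0.174, adjusted p 5.66e-10). Oas3 fell from 193 to 56.2 CPM (-1.78, SE 0.123) and Mx1, a dynamin-like antiviral GTPase, from 142 to 45.9 (-1.63, SE 0.123, adjusted p 1.84e-10). Neither Oas3 nor Mx1 was called in mTEChi. Herc6, the main ISG15 ligase of the mouse, fell from 153 to 56.9 CPM (-1.39, SE 0.199, adjusted p 7.97e-06). No regulator, chemokine or antigen-processing gene was called.

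The members given in every library of mTEChi ran as follows in mTEClo. Isg15 ran from 25.4 through 30.0 to 40.0 CPM in the 8 WT libraries and was 15.7, 11.3, 14.6 and 10.2 in AireKO (log2 fold change -1.27, SE 0.158). Irf7 ran from 211 through 244 to 285 and was 153, 127, 146 and 128 (-0.80, SE 0.112). Both separated the genotypes, and Irf7 again stopped short of 2-fold. Ifit1 ran from 145 through 161 to 180 CPM and was 70.4, 66.4, 92.6 and 106 (-0.92, SE 0.130). Usp18 ran from 179 through 195 to 226 and was 176, 177, 147 and 148 (-0.30, SE 0.0777). Both lay below WT here, where in mTEChi Usp18 had lain above.

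Stat2 ran from 302 through 341 to 385 CPM in mTEClo WT and was 253, 250, 239 and 208 in AireKO (log2 fold change -0.52, SE 0.0812). Irf1 ran from 120 through 127 to 142 and was 149, 145, 147 and 129 (0.14, adjusted p 0.113). Psmb9 ran from 86.0 through 90.9 to 109 and was 82.3, 88.9, 96.8 and 98.3 (-0.01, adjusted p 0.937). Stat2 separated the genotypes, and Irf1 and Psmb9 overlapped. Cxcl10 ran from 96.1 through 122 to 160 CPM and was 98.5, 105, 69.7 and 74.3 (-0.53, SE 0.131, adjusted p 0.00365), with overlap.

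Whether the effect of Aire loss differed between the adult fractions was tested as an interaction, and 9 members (19.1%) had a lower and 2 (4.26%) a higher ratio of AireKO to WT in mTEChi than in mTEClo, against 11% and 2.7% of genes tested. Without the 2-fold minimum the split was 14 lower and 12 higher, the estimates were negative for 24 members and positive for 23, and their median was -0.04. The interaction thus had no common direction over the list. Rsad2 differed by -3.15 on the log2 scale (SE 0.404), Ifit3 by -2.28 (SE 0.412), Ifit2 by -2.13 (SE 0.387) and Oas2 by -2.02 (SE 0.561). Rtp4, Ifit3b, Ifi44, Xaf1 and Gbp2 were the other members with a more negative effect in mTEChi. Ifit1 (1.15, SE 0.180) and Cxcl10 (1.02, SE 0.179) differed the other way. The members not called here, Isg15 (-0.41, adjusted p 0.346) and Irf7 (-0.10, adjusted p 0.732) among them, are not thereby shown to respond alike.

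For the members with an interaction, the mTEClo libraries give the other side of it. Rsad2 ran from 43.0 through 55.9 to 65.8 CPM in mTEClo WT and was 27.6, 20.04, 14.3 and 25 in AireKO. Ifit2 ran from 43.1 through 53.0 to 62.1 and was 13, 11.9, 11 and 18.2. Ifit3 ran from 66.4 through 75.1 to 92.9 and was 30.3, 28.8, 39.0 and 52.2. In each case AireKO lay below WT without overlap, by less than in mTEChi. Rtp4 ran from 125 through 134 to 153 CPM and was 104, 101, 114 and 133 (log2 fold change -0.26, adjusted p 0.0812), with overlap. Oas2 ran from 106 through 123 to 162 and was 26.0, 24.4, 30.1 and 30.1. Ifit3b ran from 16.5 through 22.8 to 25.4 and was 4.87, 5.01, 7.15 and 11.2. These last 2 separated the genotypes. Ifi44 ran from 216 through 249 to 272 CPM and was 87.1, 84.5, 119 and 145. Xaf1 ran from 135 through 139 to 159 and was 105, 104, 93.8 and 110. Gbp2 ran from 73.6 through 82.5 to 95.3 and was 44.4, 40.1, 47.4 and 57.8. All 3 separated the genotypes.

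In neonatal mTEChi, 21 members (44.7%) were lower in AireKO than in Ctrl, against 12.8% of genes tested, and none was called higher, against 3.56%. At an unadjusted p under 0.05, 35 members were lower and 3 higher, and DESeq2 called 23 lower and none higher. The median log2 fold change was -0.94, 41 of 47 estimates were negative, and 33 members had every AireKO library below every Ctrl library. The share of all genes that separated likewise was not counted. The neonatal AireKO libraries were 4, 6 and 4 days old and the Ctrl libraries spanned 1 to 6 days.

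Rsad2 was 57.9, 59.5, 63.5, 82.9 and 100 CPM in the Ctrl libraries and 7.54, 8.26 and 8.76 in AireKO (log2 fold change -3.14, SE 0.273, adjusted p 1.34e-07). Ifit3 was 10.1, 15.0, 22.8, 34.8 and 20.6 in Ctrl and 0, 1.38 and 2.26 in AireKO (-3.79, SE 0.656, adjusted p 0.000219). Both separated the genotypes without overlap. Ifit2 was 41.1, 46.2, 75.9, 69.4 and 55.0 CPM in Ctrl and 2.74, 11.7 and 8.19 in AireKO (-2.92). Ifit3b was 1.13, 3.47, 7.98, 8.98 and 4.92 in Ctrl and 0.685, 0 and 0.848 in AireKO (-3.14, SE 0.740). Ifit2 and Ifit3b did not overlap either. Ifit1 was 79.3, 94.1, 121, 129 and 133 CPM in Ctrl and 113, 83.3 and 67.2 in AireKO (-0.37, SE 0.251, adjusted p 0.286), with overlap as in adults.

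Oas2 was 9, 6.93, 13.8, 9.77 and 11 CPM in Ctrl and 0.685, 0 and 0.565 in AireKO, resting on 3 counts in all in AireKO and 162 in Ctrl. That is a ratio of Ctrl to AireKO of 22.8 with a 95% counting interval of 7.67 to 112. Oas3, which like Oas2 makes 2′-5′-linked oligoadenylates, fell from 38 to 6.4 CPM (log2 fold change -2.50, SE 0.555), and Oas1a from 30.1 to 6.58 (-2.15, SE 0.263). With Oasl2 (-1.04, SE 0.145), 4 members of the OAS class were called here, against Oas2 alone in adults. Igtp, an immunity-related GTPase, fell from 85.6 to 25.1 CPM (-1.77, SE 0.223), and Bst2, the virus-tethering protein tetherin, from 25.5 to 11.7 (-1.14, SE 0.275).

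Rtp4 was 24.8, 25.4, 41.3, 52.0 and 40.5 CPM in Ctrl and 7.54, 6.89 and 7.06 in AireKO. Ifi44 was 40.5, 41.0, 60.8, 83.7 and 49.6 in Ctrl and 4.11, 9.64 and 10.2 in AireKO (log2 fold change -2.73, SE 0.398). Xaf1 was 20.3, 17.3, 38.0, 50.7 and 31.6 in Ctrl and 2.74, 7.58 and 9.89 in AireKO (-2.14, SE 0.393). All 3 fell with no overlap. Gbp2 was 46.7, 47.4, 67.4, 76.6 and 75.6 CPM in Ctrl and 18.5, 13.8 and 26.3 in AireKO (-1.64, SE 0.388), and it fell without overlap as well.

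Irf7 was 42.2, 49.7, 65.5, 58.6 and 78.0 CPM in Ctrl and 27.4, 15.8 and 22.3 in AireKO (log2 fold change -1.44, SE 0.259, adjusted p 0.00031), and so was called in neonates. Isg15 was 4.5, 5.78, 11, 12.7 and 12.4 in Ctrl and 3.43, 0.689 and 5.93 in AireKO (-1.32, SE 0.523, adjusted p 0.0613). Isg15 overlapped and was not called, on fewer than 13 CPM in any library. Usp18 was 155, 146, 142, 122 and 134 CPM in Ctrl and 105, 167 and 118 in AireKO (-0.11, adjusted p 0.583). Stat2 was 101, 91.3, 99.3, 109 and 103 in Ctrl and 65.1, 79.2 and 70.1 in AireKO (-0.50, SE 0.168, adjusted p 0.0294). Usp18 overlapped, and Stat2 lay lower in every AireKO library.

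Irf1 was 124, 128, 167, 152 and 159 CPM in Ctrl and 182, 166 and 142 in AireKO (log2 fold change 0.15, adjusted p 0.487). Psmb9 was 63.6, 58.3, 96.5, 86.1 and 79.9 in Ctrl and 85.6, 78.5 and 83.1 in AireKO (0.09, adjusted p 0.739). Cxcl10 was 164, 195, 143, 126 and 167 in Ctrl and 352, 358 and 226 in AireKO (0.97, SE 0.267, adjusted p 0.00909). Irf1 and Psmb9 overlapped, whereas every AireKO library held more Cxcl10 than any Ctrl library, at just under 2-fold.

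The adult and neonatal comparisons share no library and can be set side by side. Of the 20 members lower in adults and the 21 lower in neonates, 15 were called in both, which is 75% of the adult and 71.4% of the neonatal set. The overlap of calls over all genes was not counted, so this overlap is not read as particular to the members. Isg15, Ifih1, Gbp5, Gbp7 and Eif2ak2 were called in adults alone, and Irf7, Oas1a, Oas3, Oasl2, Bst2 and Igtp in neonates alone, a difference between ages that was not tested gene by gene. Across the 47 members the log2 fold changes correlated with Pearson's r of 0.870 and Spearman's rho of 0.815. Genes are not independent replicates, and both axes come from mTEChi lacking the same gene. Usp18, Ifit1, Tap1 and Zbp1 had estimates of opposite sign at the 2 ages.

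**Figure D3:**
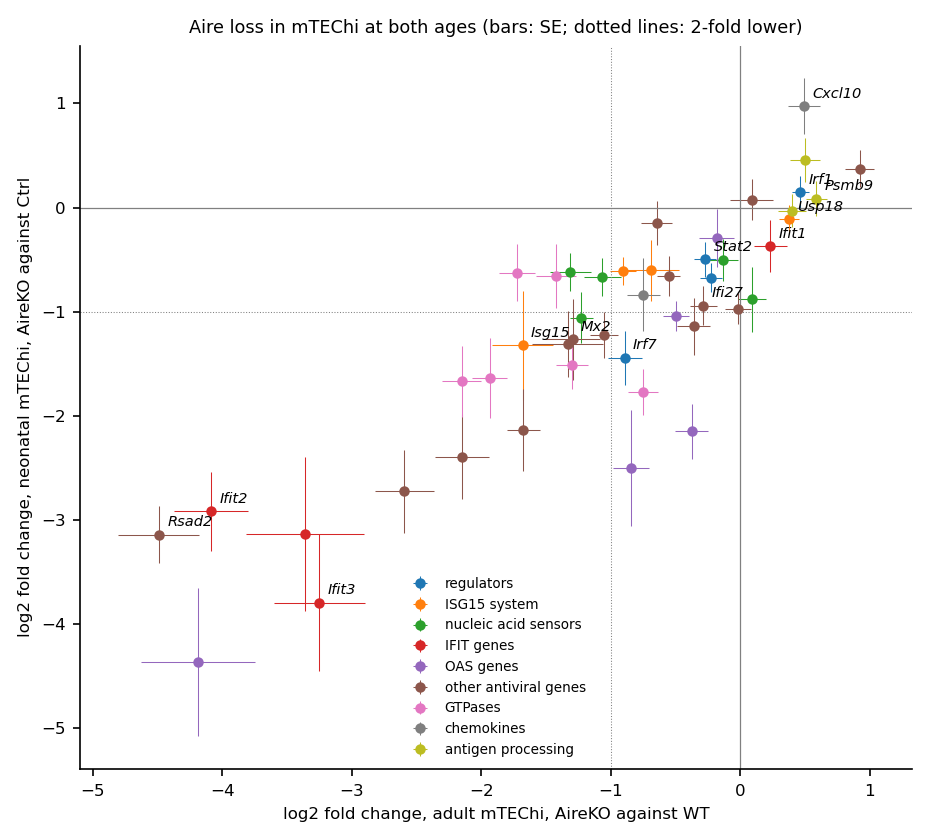
Each point is 1 of the 47 members, with its log2 fold change for AireKO against WT in adult mTEChi (horizontal) and for AireKO against Ctrl in neonatal mTEChi (vertical), bars for SE and colours for role. Rsad2, Ifit2 and Ifit3 lie at the lower left, and Cxcl10 at the upper right, at 0.49 and 0.97.

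Of the same marker lists, 3 of 9 dendritic and myeloid, 2 of 4 plasmacytoid dendritic and 3 of 5 mesenchymal markers were lower in neonatal mTEChi AireKO, and 1 mesenchymal marker was higher (mesenchymal median log2 fold change -1.17). Adgre1 averaged 45.2 CPM (26.6 to 63.8) in Ctrl, 3.51 in AireKO, 8.60 in EEDcKO and 2.71 in AireEEDdKO. Summed dendritic and myeloid markers, Cd74 included, ranged from 800 to 1222 CPM in Ctrl and from 943 to 1798 in AireKO, and Ptprc averaged 18.4 and 14.2. The part of these markers in the member changes was not tested.

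With Eed lost in neonatal mTEChi, 7 members (14.9%) were higher than in Ctrl, against 8.48% of genes tested, and none was lower, against 5.4%. At an unadjusted p under 0.05, 32 members were higher and none lower, and DESeq2 called 6 higher and none lower. The median log2 fold change was 0.57, with 45 of 47 estimates positive. Bst2 averaged 65.4 CPM in EEDcKO and 25.5 in Ctrl (1.33, SE 0.219, adjusted p 9.61e-05). Lgals3bp, a secreted glycoprotein, averaged 255 and 126 (1.01, SE 0.131, adjusted p 8.4e-06). Oas3 (1.22), Ifit3 (1.14), Xaf1 (1.06) and Oas2 (1.04) were the others, with Irf7, and of these Ifit3 overlapped Ctrl.

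Irf7 was 148, 115 and 173 CPM in the 3 EEDcKO libraries, above all 5 Ctrl libraries (log2 fold change 1.28, SE 0.211, adjusted p 0.000102). Isg15 was 17.3, 17.1 and 23.9 (0.99, SE 0.398, adjusted p 0.0591). Stat2 was 174, 124 and 200 (0.72, SE 0.156, adjusted p 0.00128). All 3 lay above every Ctrl library, with Isg15 and Stat2 under 2-fold. Usp18 was 158, 138 and 181 CPM, Ifit1 was 181, 92.5 and 225, and Psmb9 was 92.3, 97.8 and 120. Cxcl10 was 242, 149 and 228 CPM, and Irf1 was 131, 109 and 117 (-0.31, SE 0.152). These 5 overlapped Ctrl.

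The second EEDcKO library, of 2 to 3 days, was the lowest of the 3 for many of the members given. Rsad2 was 102, 87.9 and 148 CPM, Ifit3 was 55.1, 31.7 and 56.6, and Ifit2 was 74.9, 42.7 and 84.6. Ifi44 was 116, 58.0 and 110 CPM, Gbp2 was 115, 58.2 and 113, and Rtp4 was 66.9, 51.2 and 99.4. Without that library 11 members were called, and without the third, the 1-day library that also held most interferon transcripts, 3 were called. Oas2 was 20.4, 23.6 and 19.5 CPM, Xaf1 was 70.0, 52.7 and 83.0, and Ifit3b was 9.91, 8.97 and 13.5, so that Oas2 and Ifit3b varied less. Summed mesenchymal markers averaged 614 CPM in EEDcKO and 274 in Ctrl mTEChi, 4 of 9 dendritic and myeloid markers were lower and 1 higher in EEDcKO, and their part in the member changes was not tested.

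In neonatal mTEClo, EEDcKO against Ctrl gave 2 members higher (4.26%), against 9.51% of genes tested, and none lower, against 6.22%. DESeq2 likewise called 2 higher and none lower. Oas2 was 27.9, 56.4, 46.5 and 44.4 CPM in EEDcKO and 13.5, 22.4 and 23.1 in Ctrl (log2 fold change 1.17, SE 0.352, adjusted p 0.0144). Zbp1, the sensor of left-handed nucleic acid, averaged 125 and 56.2 CPM (1.16, SE 0.292, adjusted p 0.00422), with overlap. The share of members called was below that of all genes. Ages differed between these groups, at 2 to 3, 1, 6 and 4 days in EEDcKO and 1 to 3 days in Ctrl.

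Under the same comparison Irf7 was 94.6, 91.9 and 97.9 CPM in mTEClo Ctrl and 135, 155, 210 and 195 in EEDcKO (log2 fold change 0.88, SE 0.226, adjusted p 0.0049). Stat2 was 143, 137 and 127 in Ctrl and 159, 210, 278 and 268 in EEDcKO (0.76, SE 0.165). Ifit2 was 62.5, 66.6 and 43.9 in Ctrl and 21.6, 30.2, 34.5 and 40.9 in EEDcKO (-0.86, SE 0.302, adjusted p 0.0342). All 3 separated the genotypes under 2-fold, Ifit2 in the direction opposite to the other two. Isg15 was 28.7, 21.4 and 7.88 CPM in Ctrl and 27.3, 27.7, 44.4 and 38.9 in EEDcKO. Usp18 was 131, 112 and 111 in Ctrl and 106, 129, 135 and 109 in EEDcKO. Ifit1 was 109, 104 and 94.0 in Ctrl and 115, 119, 148 and 124 in EEDcKO. None of these 3 passed the test, although Ifit1 did not overlap. Irf1 was 222, 191 and 208 CPM in Ctrl and 244, 203, 167 and 169 in EEDcKO. Psmb9 was 118, 106 and 125 in Ctrl and 74.1, 93.8, 110 and 113 in EEDcKO. Cxcl10 was 147, 147 and 203 in Ctrl and 79.5, 129, 181 and 190 in EEDcKO. The groups overlapped for these 3. Summed cortical epithelial markers averaged 2062 CPM (1694 to 2581) in mTEClo Ctrl and 631 (390 to 876) in EEDcKO. Of the 5 mesenchymal markers, 4 were higher (median log2 fold change 2.55), and their sum averaged 121 CPM in Ctrl and 515 in EEDcKO. The part of both lists was not tested.

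Whether Eed loss acted differently in the 2 neonatal fractions was tested as an interaction, and no member was called by edgeR or DESeq2, against 0.614% of genes tested higher and 0.97% lower in mTEChi. At an unadjusted p under 0.05 there were 6 members, and Lgals3bp passed the adjusted threshold under 2-fold (0.79, SE 0.191, adjusted p 0.0301). A similar effect in both fractions is not shown by this, since the median over the members was 0.33.

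Loss of Aire on top of Eed loss gave the most members called. In neonatal mTEChi, 31 of 47 (66%) were lower in AireEEDdKO than in EEDcKO, against 8.36% of genes tested, and none was higher, against 4.99%. At an unadjusted p under 0.05, 41 were lower and 1 higher, and DESeq2 called 31 lower and none higher. The median log2 fold change was -1.47, and 39 members had every AireEEDdKO library below every EEDcKO library, a count again without its share of all genes. All 4 IFIT genes, all 6 GTPases, 4 of 5 OAS genes, 3 of 4 members of the ISG15 system and 8 of 14 other antiviral genes fell. None of the 3 antigen-processing genes was called. The AireEEDdKO libraries were 4, 6 and 4 days old and the EEDcKO libraries 6, 2 to 3 and 1, so age differed along with genotype.

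Ifit3b was 0, 0 and 0.321 CPM in AireEEDdKO, resting on 1 count against 100 in EEDcKO, a ratio of EEDcKO to AireEEDdKO of 69.8 with a 95% counting interval of 12.2 to 2784. Ifit3 was 0, 0 and 2.57 CPM (log2 fold change -5.27, SE 0.673). Rsad2 was 12.4, 6.93 and 9.62 (-3.54, SE 0.277). All 3 lay below every EEDcKO library. Ifit2 was 2.94, 0.578 and 5.77 CPM, Oas2 was 1.18, 1.16 and 1.92, and Rtp4 was 4.71, 2.31 and 15.4. Ifi44 was 9.42, 3.47 and 19.2 CPM, Xaf1 was 4.71, 5.20 and 14.4, and Gbp2 was 23.5, 9.24 and 21.2. Each of these was called lower.

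Usp18, Ifit1 and Stat2, which had not been called on Aire loss alone in mTEChi, were lower here. Usp18 was 51.2, 52.6 and 66.4 CPM in AireEEDdKO (log2 fold change -1.47, SE 0.160). Ifit1 was 54.2, 35.2 and 39.5 (-1.95, SE 0.290). Stat2 was 50.0, 53.1 and 58.4 (-1.62, SE 0.187). The 3 lay below every library of the other 3 mTEChi genotypes. Isg15 was 2.35, 1.16 and 4.49 CPM (-2.71, SE 0.561, adjusted p 0.00154), and Irf7 was 38.9, 16.8 and 39.1 (-2.17, SE 0.262), both within or near the range of AireKO. Irf1 was 164, 119 and 107 CPM (0.13), Psmb9 was 114, 82.0 and 83.4 (-0.16), and Cxcl10 was 453, 338 and 206 (0.69, SE 0.303, adjusted p 0.104). These last 3 overlapped EEDcKO.

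The interaction of Aire and Eed loss in mTEChi was tested directly. Of 47 members, 3 (6.38%) had a more negative effect of Aire loss without Eed than with it, against 0.446% of genes tested, and none a more positive one, against 0.807%. DESeq2 also called 3 and none. They were Usp18 (difference -1.36, SE 0.209, adjusted p 0.00315), Ifit1 (-1.58, SE 0.378, adjusted p 0.0379) and Stat2 (-1.12, SE 0.249, adjusted p 0.0315). Usp18 was called when each of the 14 libraries was left out in turn, whereas Ifit1 lost its call in 11 of 14 and Stat2 in 7 of 14, and 1 member was called without the third mTEChi Ctrl library.

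Against AireKO, AireEEDdKO mTEChi had 2 members lower (4.26%), against 2.78% of genes tested, and 1 higher (2.13%), against 6.69%. Usp18 averaged 56.7 CPM in AireEEDdKO and 130 in AireKO (log2 fold change -1.17, SE 0.161, adjusted p 2.61e-05), and Ifit1 averaged 43.0 and 87.9 (-1.02, SE 0.296, adjusted p 0.0187). Lgals3bp was higher, at 144 against 65.1 CPM (1.15, SE 0.161, adjusted p 3.05e-05). The ages of these libraries were the same, at 4, 6 and 4 days in each group.

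In neonatal mTEClo, 30 members (63.8%) were lower in AireEEDdKO than in EEDcKO, against 1.85% of genes tested, and none was higher, against 3.45%. At an unadjusted p under 0.05, 39 were lower and none higher, and DESeq2 called 29 lower and none higher. Of the 31 lower in mTEChi and 30 lower in mTEClo, 27 were called in both, or 87.1% and 90%. The 2 comparisons share no library but set the same genotypes against each other, and the overlap over all genes was not counted. When the fit held only the 2 groups compared, the count in mTEClo was 13. The mTEClo AireEEDdKO libraries were 4, 6 and 4 days old and the EEDcKO libraries 2 to 3, 1, 6 and 4. Of the 4 tested plasmacytoid dendritic markers, 2 were lower, the member Bst2 among them, and the summed list ranged from 348 to 422 CPM in AireEEDdKO and from 428 to 516 in EEDcKO, without overlap. Their part in the member changes was not tested.

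Ifit1 was 16.7, 18.1 and 33.8 CPM in mTEClo AireEEDdKO (log2 fold change -2.46, SE 0.281) and Usp18 was 48.6, 50.1 and 51.9 (-1.25, SE 0.148), below every EEDcKO and every Ctrl library. Rsad2 was 7.26, 7.39 and 8.33 (-2.88, SE 0.254). All 3 lay below every EEDcKO library. Isg15 was 7.26, 4.72 and 14.4 CPM (-1.98, SE 0.419), Irf7 was 53.6, 48.0 and 69.9 (-1.61, SE 0.230), and Stat2 was 86.1, 92.2 and 115 (-1.23, SE 0.167). Irf1 was 146, 112 and 111 CPM (-0.67, SE 0.156, adjusted p 0.0101), below every EEDcKO library and under 2-fold. Psmb9 was 102, 83.1 and 79.9 CPM (-0.15), and Cxcl10 was 183, 120 and 91.0 (-0.15), both with overlap. Irgm1 fell from 162 to 45.6 CPM (-1.82, SE 0.219), and Mx1, Ifih1 and Eif2ak2 were called here and not in mTEChi, a difference not tested.

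Of the remaining members described in each library, Oas2 was 1.26, 2.26 and 9.49 CPM in mTEClo AireEEDdKO, Rtp4 was 21.5, 25.9 and 50.2, and Ifit3 was 4.42, 2.26 and 10.9. Ifit2 was 4.73, 3.9 and 6.95, Ifit3b was 0.946, 0.205 and 1.62, and Ifi44 was 25.6, 22.2 and 47.2. The last-named library held the highest value of each. Xaf1 was 27.1, 28.1 and 48.8 CPM and Gbp2 was 35.3, 39.4 and 60.0, again highest in the last. In mTEClo EEDcKO, Gbp2 was 44.8, 48.5, 131 and 131 CPM, so it overlapped and was not called.

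The same members in mTEClo EEDcKO showed how far the Aire-sufficient libraries spread, across ages of 2 to 3, 1, 6 and 4 days in the order given. Rsad2 was 47.5, 44.9, 80.2 and 53.5 CPM, against 69.9, 70.5 and 60.2 in mTEClo Ctrl. Ifit3 was 35.7, 41.3, 69.5 and 56 CPM, against 47.3, 43.1 and 39.9. Rtp4 was 111, 119, 115 and 117 CPM, against 73, 82.8 and 84.4. Rsad2 and Ifit3 overlapped between EEDcKO and Ctrl, and Rtp4 lay higher in every EEDcKO library. Ifit3b was 9.09, 7.9, 16 and 9.84 CPM, against 13.2, 8.77 and 4.5. Ifi44 was 131, 142, 146 and 146 CPM, against 167, 148 and 171. Xaf1 was 104, 117, 131 and 121 CPM, against 88.5, 98.2 and 106. Ifi44 thus lay lower in every EEDcKO library, and the other two overlapped.

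**Figure D4:**
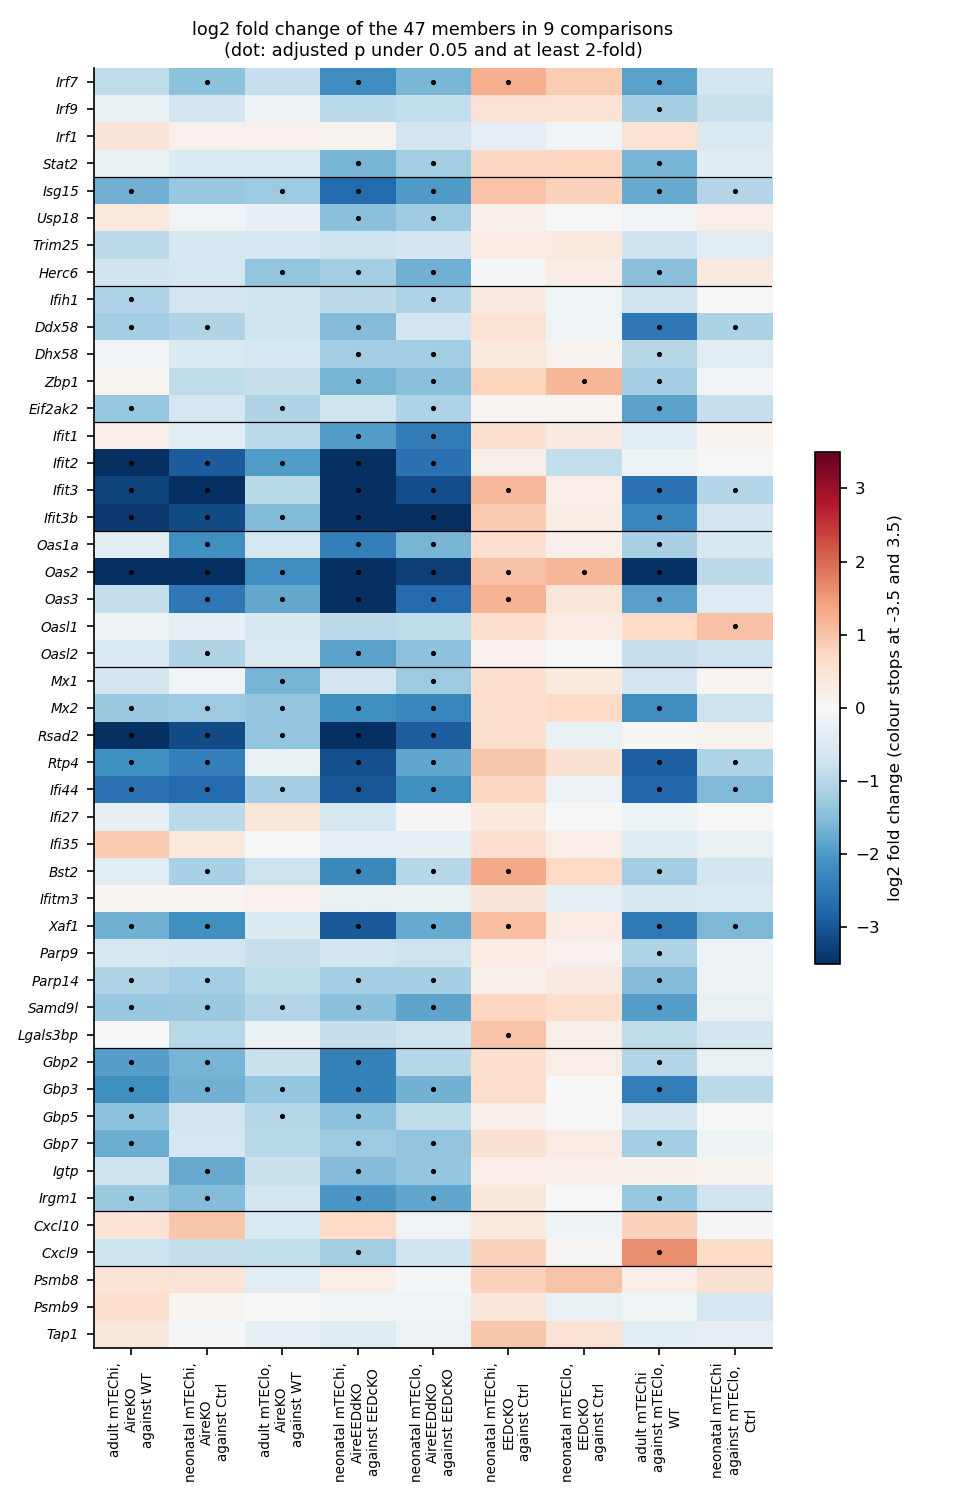
Log2 fold change (colour, stopping at -3.5 and 3.5) of the 47 members (rows, grouped by role) in 9 comparisons (columns), with a dot where the adjusted p was under 0.05 and the change at least 2-fold. The 5 columns of Aire loss are mostly blue, from 14 members lower in adult mTEClo to 31 in neonatal mTEChi lacking Eed, and the 3 antigen-processing rows hold no dot.

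Fewer members were called between the fractions in neonates than in adults, a difference that was not tested and that rests on fewer libraries. In Ctrl, 6 members (12.8%) were lower in mTEChi, against 6.92% of genes tested, and 1 (2.13%) was higher, against 13.8%. Xaf1 (log2 fold change -1.58, SE 0.282, adjusted p 0.000222), Ifi44 (-1.53, SE 0.280), Ddx58 (-1.12, SE 0.216), Rtp4 (-1.08, SE 0.292), Ifit3 (-1.02) and Isg15 (-1.02, SE 0.399) were lower, and Oasl1 was higher (1.02, SE 0.288, adjusted p 0.00839). All 6 were also called lower in adults, where 26 were. Isg15 overlapped between the fractions. The mTEChi Ctrl libraries were 6, 6, 2 to 3, 2 to 3 and 1 days old. The mTEClo Ctrl libraries were 2 to 3, 2 to 3 and 1 days old, so age differed along with fraction. With age in days as a term, 4 members were called. In EEDcKO, 3 members (6.38%) were higher in mTEChi, against 14.2%, and 1 (2.13%) lower, against 7.67%. Cxcl9 (1.43, SE 0.342), Ifit2 (1.06, SE 0.300) and Oasl1 were higher and Oas2 lower (-1.04, SE 0.345). The mTEChi EEDcKO libraries were 6, 2 to 3 and 1 days old and the mTEClo EEDcKO libraries 2 to 3, 1, 6 and 4.

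The ligands upstream of the list were near the limit of detection. None of the 9 interferon genes looked for (Ifna1, Ifna2, Ifna4, Ifnb1, Ifnk, Ifne, Ifng, Ifnl2 and Ifnl3) passed the filter in either table. Ifnb1, which encodes interferon beta, had 2, 2, 4, 8, 3, 3 and 5 reads in the adult mTEChi WT libraries and 0, 0, 0 and 1 in AireKO. Ifng, which encodes interferon gamma, had 4, 5, 6, 7, 6, 11 and 10 reads in WT and 1, 1, 5 and 0 in AireKO. In CPM these were 1.42 against 0.104 for Ifnb1 and 2.66 against 0.640 for Ifng, with no overlap for either gene. An exact two-sided permutation test gave p = 0.00303 for each, the smallest it allows with 7 against 4 libraries, and 0.0273 after adjustment over the 18 such tests run, which were chosen after the counts had been seen. Without any 1 of the AireKO libraries the adjusted p was 0.075. The permutation test treats libraries as exchangeable, although the AireKO libraries and some WT libraries lay in close pairs by their counts over all genes.

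In neonatal mTEChi, Ifnb1 had 1, 2, 6, 2 and 4 reads in Ctrl, none in the 3 AireKO and none in the 3 AireEEDdKO libraries (exact permutation p = 0.0357 for Ctrl against AireKO, adjusted 0.129). Ifng had 5, 2, 15, 4 and 11 reads in Ctrl and 1, 0 and 3 in AireKO, with the same p. Neither passed the adjusted threshold. In mTEClo, Ifnb1 had no read in any library but 1 read in a neonatal Ctrl library. In the EEDcKO mTEChi libraries Ifnb1 had 2, 3 and 85 reads, Ifna4 had 0, 0 and 124, Ifnl2 had 0, 1 and 32, and Ifnl3 had 0, 0 and 30, all with the high value in the third library. Ifng had 26, 0 and 1, with the high value in the first. The 9 ligands summed to 19.2, 2.41 and 88.4 CPM in these libraries, so the library with the fewest ligand reads was the second, which was also lowest for most members given above. That library was lowest as well for summed mTEC markers (2186 CPM, against 3513 and 2946). The same held for summed dendritic and myeloid markers, Cd74 included (757 CPM, against 1516 and 1110). A link between ligand and member levels was not tested.

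**Figure D5:**
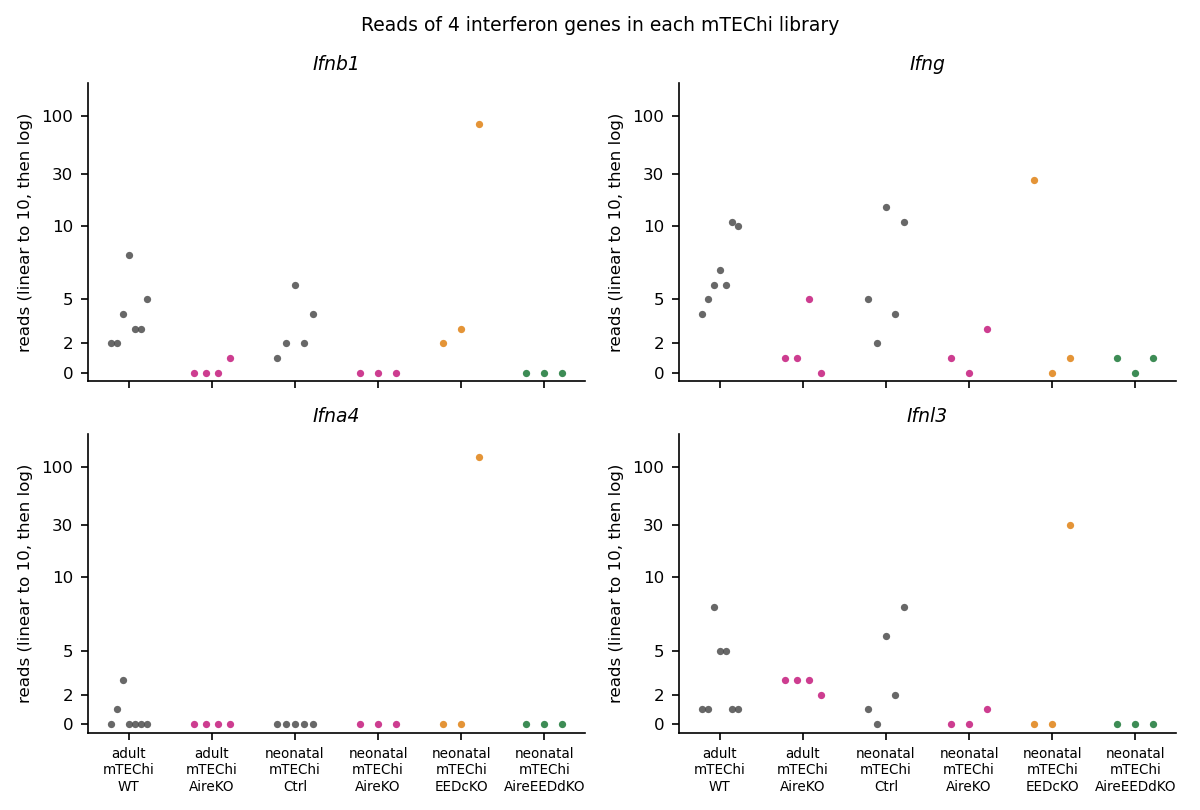
Reads of 4 interferon genes in each mTEChi library (vertical axis linear to 10 and logarithmic above). Ifnb1 has 2 to 8 reads in adult WT and 0 or 1 in AireKO, and the third EEDcKO library holds 85 Ifnb1, 124 Ifna4 and 30 Ifnl3 reads.

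Of the 6 receptor genes, edgeR called none for Aire loss in adults, with log2 fold changes in mTEChi from -0.55 for Ifnlr1 to 0.38 for Il10rb. Ifnlr1, the receptor chain specific to interferon lambda, was the receptor most tied to fraction, at 4.24 CPM in adult mTEChi WT and 48.9 in mTEClo WT (log2 fold change -3.46), and it fell with Aire loss in neonatal mTEChi from 6.41 to 1.9 CPM (-1.78). In EEDcKO mTEChi it averaged 16.5 CPM (1.25). Ifngr1 (-1.47) and Ifnar2 (-1.19) were also lower in adult mTEChi WT than in mTEClo WT.

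Of 14 signalling genes tested, 1 was higher with Aire loss in adult mTEChi (Tlr9, 1.46), against 5.63% of all genes tested, and 2 were higher in neonatal mTEChi (Irf8, 1.15, and Tlr9, 1.07), against 3.56%. Irf8, a transcription factor of myeloid cells, averaged 370 CPM in adult mTEChi WT and 732 in AireKO. Of 24 further interferon targets, all tested, 3 were lower with Aire loss in adult mTEChi (Cmpk2, -2.87, Gbp10, -2.22, and Parp12, -1.44), a smaller share than the 17.8% of all genes tested. In adult mTEClo 4 were lower (Ifi204, Ifi203, Trim30a and Cmpk2), against 3.88% of all genes. In neonatal mTEChi 6 were lower, among them Gbp10 (-2.50), Trim30a (-2.30) and Cmpk2 (-1.86), against 12.8%. With Aire lost on top of Eed, 8 were lower in mTEChi, against 8.36%, and 7 in mTEClo, against 1.85%. Cmpk2, a nucleotide kinase gene that neighbours Rsad2, was lower in each of these comparisons.

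The members did not all vary together from library to library. For each member, the deviations of log2(CPM + 1) from its group means were correlated with those of the mean of the other 46, and r was averaged over the 23 adult and 24 neonatal libraries. Parp14, a mono-ADP-ribosyltransferase, was most like the rest (0.748), followed by Gbp2 (0.714), Oas3 (0.668), Parp9 (0.661) and Irgm1 (0.615). Irf1 (-0.18), Ifi27 (-0.08), Ifitm3 (-0.07), Cxcl10 (0.117), Oas2 (0.158) and Usp18 (0.210) were least like it. Outside the list, Tnfsf10, the death ligand TRAIL, had the highest likeness to the mean of the members (0.682), and Trim30a (0.668), Ddx60 (0.653) and Ifi47 (0.653) were also among the genes most like it. These values share libraries and depth and are given as a description.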

How the data were processed

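RNA-seq counts per gene were deposited by the authors as raw count tables, adult and neonatal. Per the labels and methods, RamDA-type libraries were trimmed to 50 bp where needed, mapped to mm10 and counted after reads of low mapping quality (minimum 5) and duplicates were removed. The submitters' processing notes name fastp 0.20.0, STAR 2.7.3a, SAMtools 1.9, Picard 2.21.1 and HTSeq 0.11.2, and the methods state that counting ignored strand. The deposited normalized tables were not used.

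The members, lists and tests were chosen with earlier results of these data known. Each table was fitted apart, over all its groups, with edgeR 4.0.16 (filterByExpr, TMM, glmQLFit, glmQLFTest) in R 4.3.3, leaving 19310 and 20196 genes tested, with Benjamini-Hochberg adjustment over them. A call needed an adjusted p under 0.05 and a 2-fold change, and SE was the log2 fold change over the root of F. The code was tested on simulated data. Total counts were 1578579 to 4817418 per library, and counting intervals cover counting error only. Values in every library are given for 8 members named in the design (Isg15, Usp18, Irf7, Ifit1, Stat2, Irf1, Psmb9 and Cxcl10) and for those with an interaction between fractions or genotypes. Ligand tests and their alternatives were chosen after seeing the data. No 2 libraries of a group agreed within sampling noise (lowest chi-square per degree of freedom 1.23 over 14523 genes), so none were merged. Some pairs were close all the same. In adult mTEChi AireKO, libraries 1 and 2 gave 1.34 and libraries 3 and 4 gave 1.28, against 4.00 to 6.39 across these pairs. Each pair also shared its age in weeks. Close pairs occurred in other groups too. In adult mTEChi WT, libraries 1 and 2 gave 1.23 and libraries 4 and 5 gave 1.41. Libraries 7 and 8 of adult mTEClo WT gave 1.40, and libraries 1 and 2 of neonatal mTEChi Ctrl gave 1.24. The tests treat such libraries as independent, so their p-values may overstate the replication. The study describes its mTEChi RNA-seq values as individual mice, while some neonatal labels name both sexes and the mTEClo libraries are not described this way, so p-values measure the spread between libraries. By the correlation of deviations from group means, same-numbered libraries of different groups were most alike in 2 comparisons. These were adult AireKO fractions (r 0.168 to 0.358 over 4 pairs) and neonatal AireEEDdKO against AireKO (r 0.232 to 0.327 over 3 pairs). Same-numbered libraries there also shared their ages, and differently numbered libraries were not compared, so pairing of the samples is not shown. Gene coordinates are GENCODE vM21 on GRCm38, and Mx2 is annotated there as a polymorphic pseudogene. Alternatives were DESeq2 1.42.0, other scalings and filters, age, sex, the replicate block, only the groups compared and each library left out. Results for some genes are not reported here.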

Additional observations from a re-analysis of the deposited data

Results flagged for a closer look

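Of 162 group values tested for a library apart from the rest by Dixon's criterion, 6 passed, where chance alone flags about 1 in 20. Groups of fewer than 4 libraries, all of them neonatal, were not tested. In adult mTEChi AireKO the highest library stood apart for Rsad2 (6.16 CPM, others 0.439 to 1.25), Xaf1 (9.41 CPM, others 7.46 to 7.53) and the mean log2(CPM + 1) of the OAS genes (5.10, others 4.82 to 4.84). The lowest adult mTEChi WT library stood apart for the OAS genes (5.56, others 5.82 to 5.95). In adult mTEClo AireKO the highest library stood apart for the mean of the chemokines (5.93, others 5.47 to 5.54), and in adult mTEClo WT for Ifit3 (92.9 CPM, others 66.4 to 78.7). None of these libraries reached the range of the other genotype for the gene or class named.

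The effect of Aire loss differed between adult mTEChi and mTEClo, by a test of the interaction, for 11 members, with log2 differences of -3.15 for Rsad2, -2.28 for Ifit3, -2.13 for Ifit2, -2.02 for Oas2, -1.89 for Rtp4, -1.82 for Ifit3b (edgeR adjusted p 0.0155), -1.43 for Ifi44, -1.21 for Xaf1, -1.15 for Gbp2, 1.15 for Ifit1 and 1.02 for Cxcl10. In neonatal mTEChi the effect of Aire loss differed with Eed for Usp18 (-1.36), Ifit1 (-1.58) and Stat2 (-1.12). Of these, only Usp18 kept its call whichever library was left out.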

How the results depend on the processing

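Over 207 called pairs of member and comparison and 4029 refits, 3820 kept the call, 209 lost it with the same direction and none reversed. With no minimum change, the members called were 41 for the adult fractions in WT and 46 in AireKO, 41 and 40 for Aire loss in adult mTEChi and mTEClo, 26 for their interaction, 22 and 15 for the neonatal fractions in Ctrl and EEDcKO, 19 and 9 for EEDcKO against Ctrl in mTEChi and mTEClo, 6 for AireEEDdKO against AireKO, and 1 for the effect of Eed loss between fractions. The shares of all genes without a minimum change are not given, so these counts are not read as particular to the members. Age in days as a term left 4 for the neonatal Ctrl fractions. A fit of only the groups compared left 13 for AireEEDdKO against EEDcKO in mTEClo and 1 for EEDcKO against Ctrl there. The member level per library, adult mTEChi AireKO, averaged 4.95 on log2(CPM + 0.5) and 5.03 on log2(CPM + 1). The replicate block gave 1 member for the effect of Eed loss between fractions against 0 without it. The blocked counts of the 2 comparisons whose same-numbered libraries were most alike, 27 and 3, were those without the block. It moved no other count by over 1.5 times.

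Leaving out each library in turn gave 25 to 27 members for the adult WT fractions and 25 to 29 in AireKO, 18 to 20 for Aire loss in adult mTEChi, 12 to 16 in mTEClo and 9 to 12 for their interaction. In neonates it gave 4 to 8 for the Ctrl fractions (4 without mTEChi Ctrl 1, main 7), 2 to 5 in EEDcKO (2 without mTEChi EEDcKO 3, main 4, median log2 fold change from -0.22 to 0.24), 19 to 23 for Aire loss, 3 to 11 for EEDcKO in mTEChi, 2 to 3 for AireEEDdKO against AireKO, 29 to 35 against EEDcKO, 1 to 4 for the interaction of Aire and Eed, 1 to 3 for EEDcKO in mTEClo, 28 to 32 for AireEEDdKO there and 0 to 1 for the effect of Eed loss between fractions. Scaling by library size alone moved the median of all genes by -0.18 in both comparisons of Aire loss in mTEChi, where the member medians became -0.92 and -1.16. In adult mTEClo, the libraries with mitochondrial counts alone gave 16 members lower. Depth limits Ifit3b, Oas2 and the ligands, which rest on few reads where they are low.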
